A study of Arabidopsis thaliana with 24 samples.

Results

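The comparison described here is that of dark-grown Arabidopsis thaliana seedlings from a spaceflight with seedlings kept on the ground. Arrays were chosen by the word for seedlings in their titles, which gave 12 of the 24 arrays of the study, 6 from flight and 6 from the ground control. The other 12 arrays hold undifferentiated cultured cells. All seedlings were wild type of the Col-0 accession, and no allele or agent separates the groups. Per the labels' protocols, about 75 seeds were set on agar in a 60 mm dish, held at 4 °C and kept in the dark. Each dish sat in a slot of a BRIC canister, passive hardware for small dishes. The flight dishes travelled on the middeck and were fixed with RNAlater on orbit after 12 days and 21 hours. The ground dishes stood in a chamber that the labels call OES. In each group 5 arrays came from canister A and 1 from canister G. The labels give every array an age of 7 days, and how this age relates to the time on orbit is not given in the sources used here. The RNA of an array came from whole seedlings pooled from a dish, so fewer cells of a type and less RNA per cell cannot be told apart. The labels do not state that dishes came from separate cultures, and each p-value below therefore reflects the spread among these arrays, part of which may be technical.

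A seedling that germinates in darkness follows the etiolated programme. The hypocotyl elongates on stored lipid, the apical hook and the cotyledons stay closed, and the plastids become etioplasts that hold protochlorophyllide in place of chlorophyll. Phytochrome interacting factors, a family of DNA-binding proteins, keep many photosynthesis genes low until light arrives. The growing shoot is covered by an epidermis that makes and exports the wax and cutin of the cuticle, and lipid transfer proteins are among the abundant products of that layer. In the root, the epidermis forms hair cells that take up water and ions. Gravity is sensed by starch-filled plastids in the root cap and in the endodermis of the shoot.

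The deposited intensities are given here as log2(value + 16), and every difference is flight minus ground on that scale. A level in one of these sentences refers to a single probe set and is not set against the level of another gene. The labelled material was checked against marker genes. PHYA, the phytochrome that accumulates in darkness, had a mean of 12.13 in flight and 12.09 on ground arrays 2 to 6. PYK10, an abundant root beta-glucosidase, had means of 14.87 and 14.97 in the same groups. ELIP1, a gene induced by light, was above background on 0 arrays. PORA, the light-dependent protochlorophyllide reductase of etiolated tissue, was close to background, with means of 6.92 and 7.30. PORB, another such reductase, had means of 8.46 in flight and 6.77 on ground arrays 2 to 6, with 4.28 and 4.77 on ground 2 and 3. Of the root hair markers, RHD6 was above background on 0 arrays, COBL9 on 1 flight and 2 ground arrays, and PRP3 on 1 of each. LRX1, the 4th, was above it on 6 flight and 4 ground arrays. The root markers SCR, SHR and CASP1 were above it on 6 flight and 5 ground arrays each, and PLT2 on 1 of each. Of the hypocotyl markers, XTH4 was above it on 6 and 5 such arrays and EXPA5 on 3 and 0. The guard cell markers KAT1, MYB60 and FAMA were above it on 4, 4 and 2 flight and 1, 0 and 1 ground arrays. The light markers LHCB1.3 and RBCS1A had no probe set of their own, so the check is a limited one.

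One ground array, from canister A slot 1 and called ground 1 here, had been singled out beforehand for its high heat shock genes. It stood apart from the other 11 and decided several results, so results are given with and without it. Over the 5417 probe sets with a mean of at least 9, its Pearson correlation with the other arrays was 0.515 to 0.589, against 0.870 to 0.961 for the 55 pairs among the others. It held the highest of the 12 values for 1354 of these probe sets and the lowest for 2285. The number in its title is 168, while the titles of the 12 flight arrays of both materials carry 12 to 176 and those of the other 11 ground arrays 312 to 355. Its group was kept as labelled. Background was set on each array from 27 bacterial control probe sets, at their 95th percentile. Probe sets above it made up 62.0% ± 3.54 of the flight arrays and 49.9% ± 8.68 of the ground arrays (SD, n = 6 each). The difference was 12.1 percentage points (two-sided exact permutation test, p = 0.0173), and without ground 1 it was 9.91 points (p = 0.026). This gap in detection moves with the flight and ground groups, and its part in the results below was not tested. The background itself was at 6.58 to 7.44 on the flight arrays and at 6.97 to 8.02 on the ground arrays. It was highest on ground 1, 3, 4 and 5. The median level over all probe sets was close, at 7.30 to 7.75 in flight and 7.38 to 7.78 on the ground. Counts of arrays above background given above and below carry this unequal cut.

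**Figure D1:**
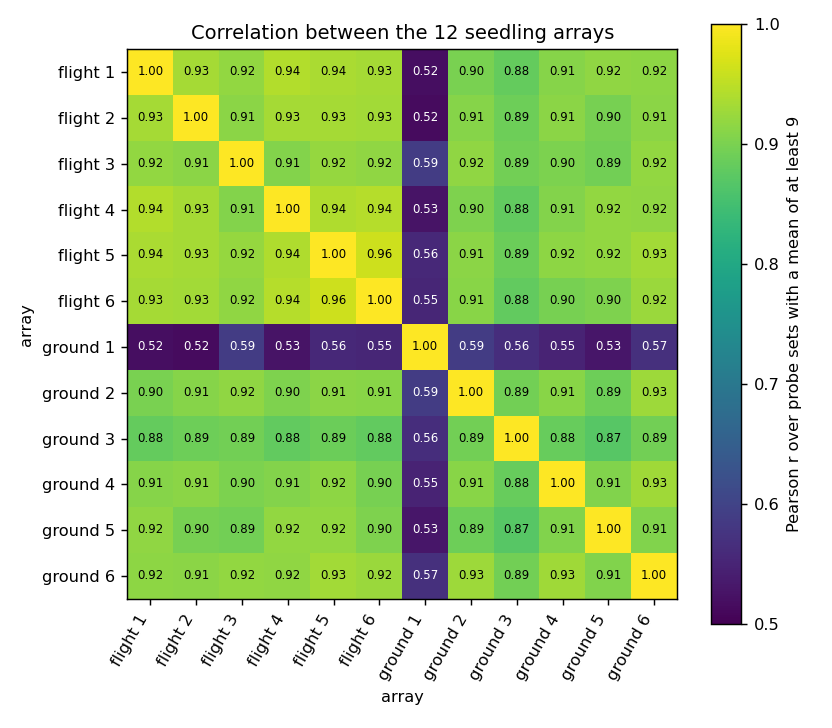
Pearson correlation between each pair of the 12 seedling arrays over the probe sets with a mean log2 level of at least 9, with the arrays on both axes and the correlation as colour. The row and column of ground 1 lie at 0.515 to 0.589, and all other pairs lie at 0.870 or above.

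On ground 1 the heat shock genes were far above every other array. The array had been singled out for these genes, so their values here are a description and no test. HSP17.4, a small cytosolic heat shock protein, was at 17.81 there and between 7.60 and 9.31 on the other 11 arrays. Hsp70b and HSP101, chaperones that refold and disaggregate heat-damaged proteins, were at 16.54 and 15.73 on ground 1, against means of 9.04 and 9.43 in flight. MBF1C, a heat-induced transcriptional coactivator, was at 16.74. Of 31 measured heat shock and chaperone genes, 30 had their highest value on ground 1, and the list's mean level was 13.91 there against 8.13 to 8.70 on the other arrays. Carbon starvation genes stood in the same place: 19 of 23 were highest on ground 1, and SEN1 and GDH2, markers of dark-induced starvation, were at 15.73 and 17.05 against ground means of 12.55 and 14.48 on arrays 2 to 6. Growth genes lay at the other end. The 15 aquaporins, the water channels of expanding cells, had a mean level of 8.61 on ground 1 and 11.10 to 11.51 elsewhere. AT1G77330, annotated as ACC oxidase 5, was at 4.64 on ground 1 against 11.31 ± 0.23 in flight (SD, n = 6). Of the 66 chloroplast genome genes, 62 were lowest on ground 1. Over all 21360 genes, 17.3% were highest and 21.9% lowest on that array.

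**Figure D2:**
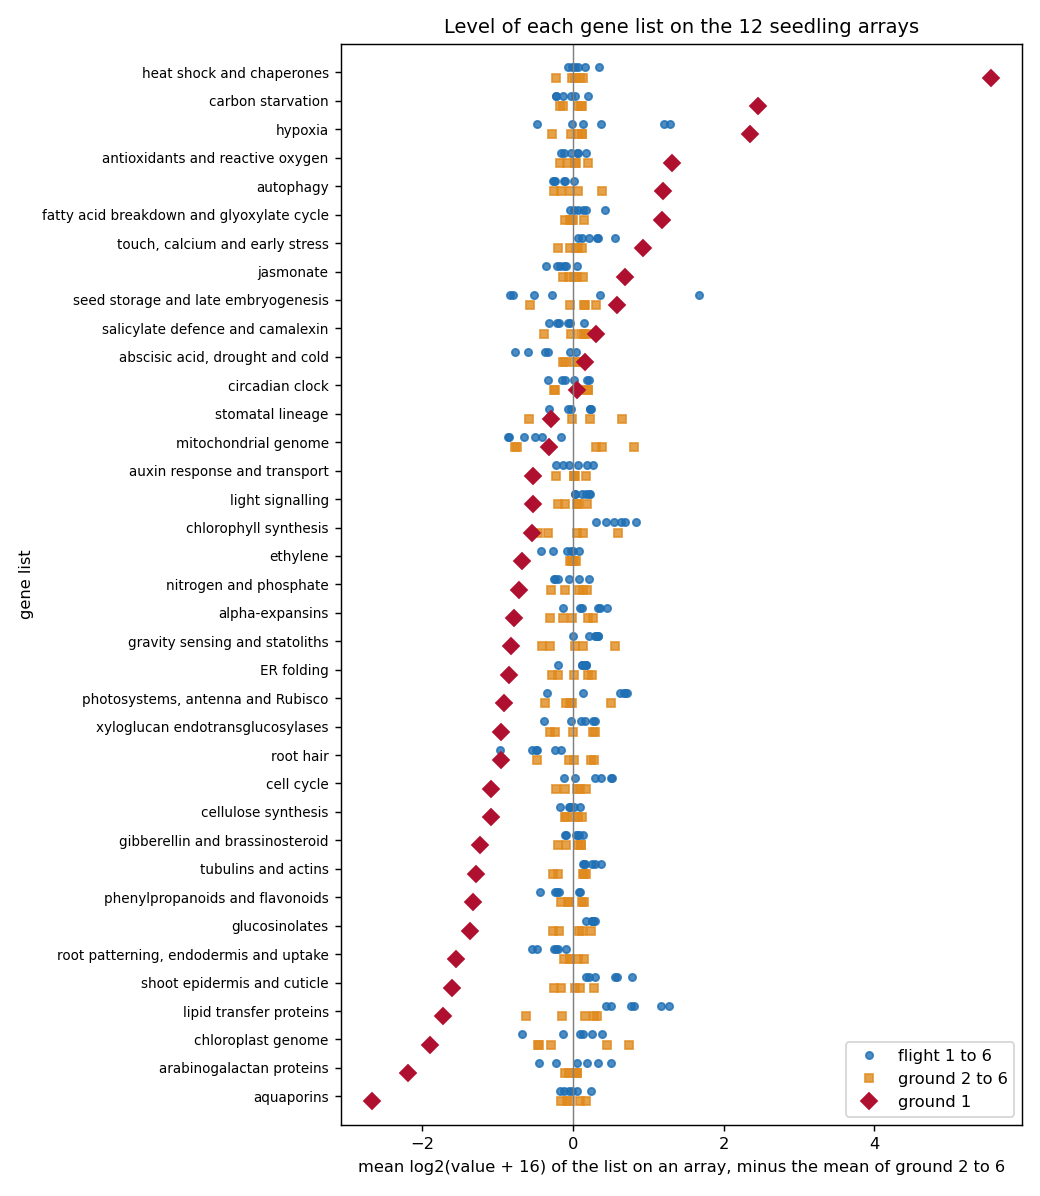
Mean log2 level of each of the 37 gene lists on each array, on the horizontal axis as the difference from the mean of ground arrays 2 to 6, with flight arrays as circles, ground arrays 2 to 6 as squares and ground 1 as a diamond. Ground 1 lies 5.55 above that mean for heat shock and chaperones and at -2.66 from it for aquaporins, and no flight array lies as far out in either list.

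Across all 22746 probe sets, few passed in the comparison of flight with ground. With 12 arrays, limma called 4 at an adjusted p under 0.05 (0.0176%), of which 1 was higher (0.0044%) and 3 lower (0.0132%) in flight, and 1823 had an unadjusted p under 0.05. Without ground 1 it called 8 (0.0352%), 4 in each direction, among them all 4 of the first fit. All 8 were dim. AT4G34950 was at 7.60, 6.54, 7.45, 8.24, 7.30 and 7.38 on flight arrays 1 to 6, and at 4.77, 5.26, 5.50, 5.33, 5.24 and 4.65 on ground arrays 1 to 6. The groups did not overlap, 5 of 6 flight arrays were above background and 0 ground arrays were, so its rise is known as a direction only (limma, adjusted p = 0.0274, and 0.035 without ground 1). The 3 lower probe sets were those of AT3G59120, annotated with zinc ion binding, AT5G39090, annotated as an acyltransferase, and AT4G21650, annotated as a serine endopeptidase. AT3G59120 lay between 4.26 and 5.49 on the flight arrays and between 6.63 and 7.51 on the ground arrays (adjusted p = 0.027, and 0.0213 without ground 1). AT5G39090 lay at 4.60 to 5.76 in flight and 6.56 to 8.05 on the ground, and AT4G21650 at 4.17 to 5.40 and 6.19 to 7.49. No fold is given for these, since 0 flight arrays were above background in any of the 3, and the only ground arrays above it were 3 for AT5G39090. Of the 4 calls that appeared only without ground 1, 3 followed that array. AT1G73040 was at 8.67 on ground 1 and at 4.72 to 5.49 on the other ground arrays, against 6.92 to 8.20 in flight. NUDT12, a Nudix hydrolase, was at 6.72 on ground 1 and at 4.49 to 5.20 on the others, against 6.4 to 7.58 in flight. AT1G47765 was at 4.96 on ground 1 and at 6.33 to 7.29 on the other ground arrays, against 4.24 to 5.32 in flight. Its adjusted p was just under the threshold, at 0.05 (limma, without ground 1). The remaining call was AT1G18340, annotated as a subunit of the transcription factor TFIIH (adjusted p = 0.0469 by the same test). These calls were sensitive to single arrays: without flight 1, flight 4, flight 6 or ground 4, 0 probe sets passed with 12 arrays.

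Among the brighter probe sets, those with a mean of at least 9 over the arrays of the fit, 11 of 5558 passed without ground 1 (0.198%), 8 higher (0.144%) and 3 lower (0.054%) in flight, and 0 of 5417 passed with all 12 arrays (0.0%; 442 at an unadjusted p under 0.05). Of the 8 that rose, 2 belong to the list of shoot epidermis and cuticle genes. PDF1, protodermal factor 1, a marker of the outermost cell layer, was at 11.76, 11.87, 10.18, 11.40, 10.62 and 11.42 on the flight arrays and at 9.28, 9.53, 9.47, 9.99 and 9.73 on ground arrays 2 to 6, with 6.70 on ground 1. Every flight array lay above every ground array. It was 3.05-fold higher in flight without ground 1 (log2 difference 1.61 ± 0.33 SE; limma over the brighter probe sets, adjusted p = 0.0271). With ground 1 it was 2.09 higher on the log2 scale (adjusted p = 0.307 over the brighter and 0.317 over all probe sets). LTPG1, a membrane-anchored lipid transfer protein that exports wax to the surface, was at 11.45, 10.97, 10.65, 11.86, 10.89 and 11.30 in flight and at 9.53, 9.92, 9.91, 10.09 and 9.58 on ground arrays 2 to 6, with 7.83 on ground 1. The groups were again separate, and the rise was 2.60-fold (1.38 ± 0.26 SE; adjusted p = 0.0141). With ground 1 it was 1.71 (adjusted p = 0.253 over the brighter and 0.292 over all probe sets). Over all probe sets without ground 1, limma gave an adjusted p of 0.174 for PDF1 and 0.142 for LTPG1. PDF1 and LTPG1 passed the same test in 6 and 10 of the 11 fits that leave out a further array.

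AT4G15630, annotated as the CASP-like membrane protein 1E1, was one of the steadiest. It lay at 10.78, 11.27, 10.42, 10.65, 10.49 and 10.35 in flight and at 9.52, 9.24, 9.15, 9.29 and 8.75 on ground arrays 2 to 6, with 8.09 on ground 1. The lowest flight array was above the highest ground array. The rise was 2.77-fold (1.47 ± 0.24 SE; limma, adjusted p = 0.00341) and passed in all 11 fits that leave out a further array, with adjusted p between 0.00375 and 0.0167. With ground 1 the difference was 1.65 (adjusted p = 0.0705 over the brighter and 0.179 over all probe sets). Over all probe sets without ground 1 the adjusted p was 0.0879. RD22, a gene induced by dehydration and abscisic acid, rose 2.34-fold (1.23 ± 0.26 SE; adjusted p = 0.0274), with flight arrays at 10.22 to 11.01 and ground arrays 2 to 6 at 8.81 to 9.90. MLP43, of the major latex protein family, rose 1.80-fold (adjusted p = 0.0274), with flight arrays at 10.74 to 11.27 and ground arrays 2 to 6 at 10.05 to 10.26. EMB3105, annotated as a constituent of the ribosome, rose 1.88-fold (0.91 ± 0.19 SE; adjusted p = 0.0225). RD22, MLP43 and EMB3105 kept the call in 5, 4 and 7 of the 11 fits that leave out a further array. With ground 1 their differences were 1.5, 1.01 and 1.26, and none passed (adjusted p of 0.253, 0.253 and 0.458 over the brighter probe sets, and of 0.317, 0.335 and 0.413 over all). AT1G09750, annotated as an aspartic endopeptidase of the cell wall, rose by 0.92 ± 0.22 SE (adjusted p = 0.0479), and this call was kept in 2 of the 11 fits that leave out a further array. With ground 1 its difference was 1.12 (adjusted p = 0.307 over the brighter and 0.344 over all probe sets). Over all probe sets without ground 1, limma gave an adjusted p of 0.195 for RD22, 0.254 for MLP43, 0.195 for EMB3105 and 0.306 for AT1G09750. The 8th riser was the probe set of AT1G06350, which pairs with several genes and cannot be assigned to one, at 8.75 to 11.75 in flight and 6.86 to 9.23 on ground arrays 2 to 6, with 6.05 on ground 1. Its call was kept in 3 of the 11 fits, and its difference was 2.93 with ground 1. Its adjusted p over all probe sets without ground 1 was 0.195 (limma). It reached the mean of at least 9 through the flight arrays, whose mean was 10.53 against 7.91 on ground arrays 2 to 6, so its place among the brighter probe sets depends on that difference. With canister A alone, AT4G15630 was the only one of the 8 that passed.

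**Figure D3:**
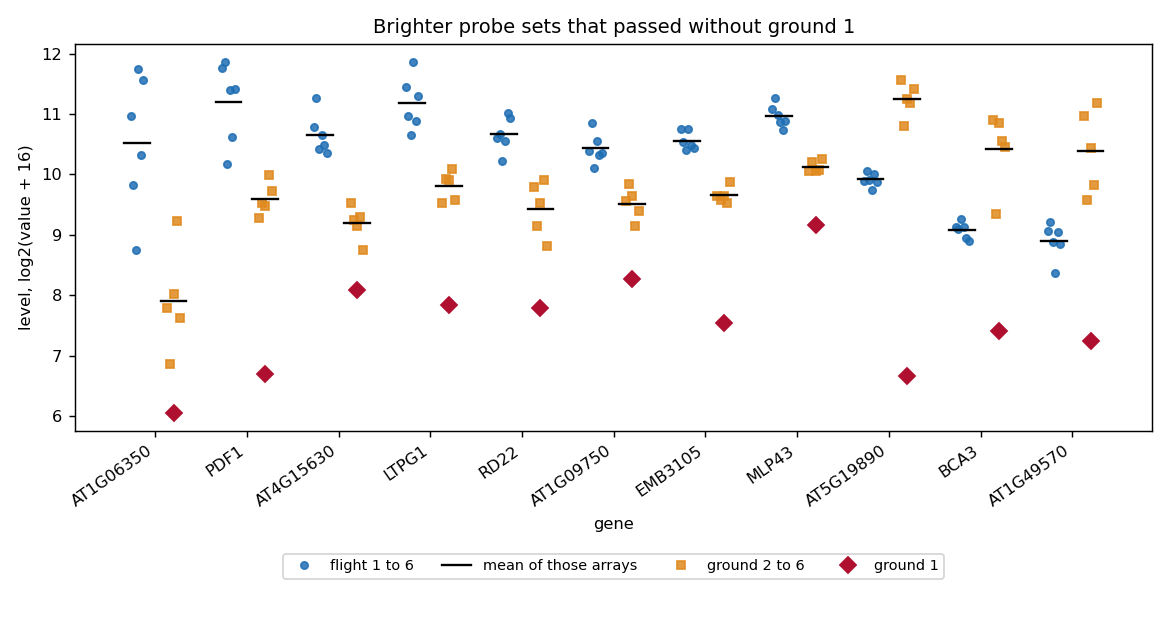
Log2 level on each seedling array of the 11 brighter probe sets that passed without ground 1, with flight and ground arrays as separate dots, group means as bars and ground 1 as a diamond. PDF1 lies at 10.18 to 11.87 in flight and 9.28 to 9.99 on ground arrays 2 to 6, while AT5G19890 lies at 9.75 to 10.06 in flight and 10.81 to 11.57 on those ground arrays. In the 3 genes that were lower in flight, ground 1 lies below the flight arrays.

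The 3 brighter genes that fell were AT5G19890 and AT1G49570, both annotated as secreted peroxidases, and BCA3, a beta carbonic anhydrase. AT5G19890 was at 9.89, 10.06, 9.91, 9.75, 10.01 and 9.88 in flight and at 11.57, 10.81, 11.25, 11.18 and 11.41 on ground arrays 2 to 6. The flight arrays lay close together and all below those ground arrays, while ground 1, at 6.66, lay below both sets. Without ground 1 the fall was 2.51-fold (-1.33 ± 0.21 SE; limma, adjusted p = 0.00268), and it held in all 11 fits that leave out a further array. AT1G49570 was at 8.37 to 9.21 in flight and 9.57 to 11.18 on ground arrays 2 to 6, with 7.24 on ground 1, a 2.81-fold fall (adjusted p = 0.0274). BCA3 was at 8.90 to 9.27 in flight and 9.35 to 10.91 on those ground arrays, with 7.41 on ground 1, a 2.54-fold fall (adjusted p = 0.0274). With ground 1 included, these genes had differences of -0.56, -0.97 and -0.84 and none passed (adjusted p of 0.741, 0.579 and 0.58 over the brighter probe sets, and of 0.829, 0.681 and 0.699 over all). Over all probe sets without ground 1 none passed either (limma, adjusted p of 0.0667, 0.195 and 0.195). AT1G49570 and BCA3 passed in 4 and 5 of the 11 fits that leave out a further array, and with canister A alone AT5G19890 was the only one of the 3 that passed. AT1G49570 reached the mean of at least 9 through the ground arrays, with a mean of 8.90 in flight and 10.40 on ground arrays 2 to 6.

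Under a limma prior that follows the mean level and resists outlying variances, 29 of all probe sets passed without ground 1 (0.127%), 18 higher (0.0791%) and 11 lower (0.0484%), and 0 with it (smallest adjusted p 0.0532). The naming rule covers calls over all probe sets, so BCA3, EMB3105, AT5G19890, AT4G15630, AT1G49570, AT1G09750 and AT1G06350, and other genes such as LTP6, GUN5, LRX1, CYP86A8, ADH1 and CRA1, were chosen after their values were seen. Of the 29, 8 belong to the fixed gene lists. LTP6, a lipid transfer protein, was at 9.52, 9.29, 7.46, 8.08, 8.19 and 8.09 in flight and at 6.37, 7.56, 4.50, 4.37 and 5.04 on ground arrays 2 to 6, with 5.18 on ground 1. It was above background on all flight arrays and on 0 ground arrays, and was at least 1.76-fold higher in flight (adjusted p = 0.00992 under that prior, and 0.179 under the first fit without ground 1). GUN5, the H subunit of magnesium chelatase, the first enzyme committed to chlorophyll, was at 8.57 to 9.43 in flight and at 4.75, 5.75, 8.04, 7.89 and 7.11 on ground arrays 2 to 6 (2.22 ± 0.54 SE; adjusted p = 0.0161 under that prior; 2.32 with ground 1). It was above background on 2 of 6 ground arrays, so the size of this difference is uncertain. Ground arrays 4 and 5 lay close below the flight arrays, and ground 2 and 3 far below. LRX1, a wall protein of growing root hairs, was at 7.85, 8.47, 8.10, 8.05, 8.56 and 7.60 in flight and at 10.18, 7.90, 10.01, 9.70 and 9.81 on ground arrays 2 to 6, with 5.63 on ground 1. Ground 3 lay inside the flight range, and the fall was -1.41 ± 0.39 SE (adjusted p = 0.0476 under that prior; -0.77 with ground 1). ACT2, a vegetative actin, and CAT3, a catalase, fell by 0.54 and 0.49 on the log2 scale (adjusted p of 0.0207 and 0.0473 under that prior). Their differences were -0.57 and -0.29 with ground 1. Under the first fit without ground 1, GUN5, LRX1, ACT2 and CAT3 did not pass (adjusted p of 0.306, 0.345, 0.502 and 0.568). PDF1, LTPG1 and RD22 were the other list members, and they passed here as well.

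The list of shoot epidermis and cuticle genes lay higher in flight. Of its 26 measured genes, 22 had a higher mean in flight with 12 arrays and 19 without ground 1, with median differences of 0.73 and 0.39. Over all 21360 genes the corresponding shares were 48.8% and 46.3%, with medians of -0.02 and -0.04. In neither fit over all probe sets did a member of this or any other list pass. Its mean level was 8.56, 8.78, 8.17, 8.59, 8.21 and 8.29 on the flight arrays, and 7.75, 8.03, 8.10, 8.28 and 7.85 on ground arrays 2 to 6, with 6.4 on ground 1. Ground 5 lay among the flight arrays and the others below. Besides PDF1 and LTPG1, CYP86A8, a fatty acid hydroxylase of cutin synthesis, made the third of 3 members with no overlap between flight and ground arrays 2 to 6, at 7.73 to 8.60 against 5.95 to 7.72, while ground 1 was at 9.47. Without ground 1, 120 genes lay wholly above in flight (0.562% of all genes) and 119 wholly below (0.557%). ABCG12, a wax exporter, had a difference of 1.02 without ground 1 and 1.49 with it, and CER2, needed for long wax chains, of 0.56 and 1.35. CER3, which acts in alkane formation, and PDF2, a regulator of epidermal identity, had differences of -0.33 and -0.28 without ground 1, and of 0.07 and 0.34 with it. The 6 lipid transfer proteins outside that list had a median difference of 0.65 without ground 1 and 1.01 with it, and 5 of 6 were higher in both. Their mean level was 9.12 to 9.95 in flight and 8.06 to 9.0 on ground arrays 2 to 6, so the arrays separated. This separation rests on LTP6, which was at 4.37 to 7.56 on those ground arrays, all below background, and at 7.46 to 9.52 in flight. The mean of the other members does not separate the arrays.

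The genes of chlorophyll synthesis were higher in flight in 21 of 26 cases with and without ground 1, with medians of 0.70 and 0.48. ALB1, the D subunit of magnesium chelatase, was at 9.49 to 10.35 in flight and 8.77 to 9.09 on ground arrays 2 to 6, with 9.81 on ground 1. Its difference of 0.89 ± 0.23 SE without ground 1 did not pass (limma over the brighter probe sets, adjusted p = 0.0585), and it was 0.74 with ground 1. Its ground arrays 2 to 6 lay near the mean of 9 that the brighter set requires, so its place there leans on the flight arrays. Unless stated, adjusted p-values of single genes from here on come from limma over the brighter probe sets without ground 1. CHLM, the methyltransferase that follows the chelatase, differed by 0.45 ± 0.24 SE (adjusted p = 0.369; 0.67 with ground 1). HEMC, an early step of the tetrapyrrole pathway, was above background on all flight arrays and on 0 ground arrays. The list means by array show how the ground set divides: they were 8.71, 8.41, 8.17, 8.51, 8.56 and 8.31 in flight and 7.41, 7.54, 7.93, 8.47 and 8.0 on ground arrays 2 to 6, with 7.33 on ground 1. Ground 5 lay within the flight range. Of 38 nuclear genes for photosystems, antenna and Rubisco function, 34 were higher with 12 arrays and 33 without ground 1, with medians of 0.51 and 0.41. PSBR, of photosystem II, was at 10.15 to 12.19 in flight and 9.93 to 12.14 on ground arrays 2 to 6, and these ranges overlap nearly in full. LHCA4, an antenna protein of photosystem I, differed by 0.72 ± 0.31 SE (adjusted p = 0.277; 0.73 with ground 1). Of the 2 lists, 7 of 26 and 10 of 38 genes had a mean of at least 9. On ground arrays 3 to 5, 43.4% to 48.7% of all probe sets were above background, and the part of that difference in detection was not tested.

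**Figure D4:**
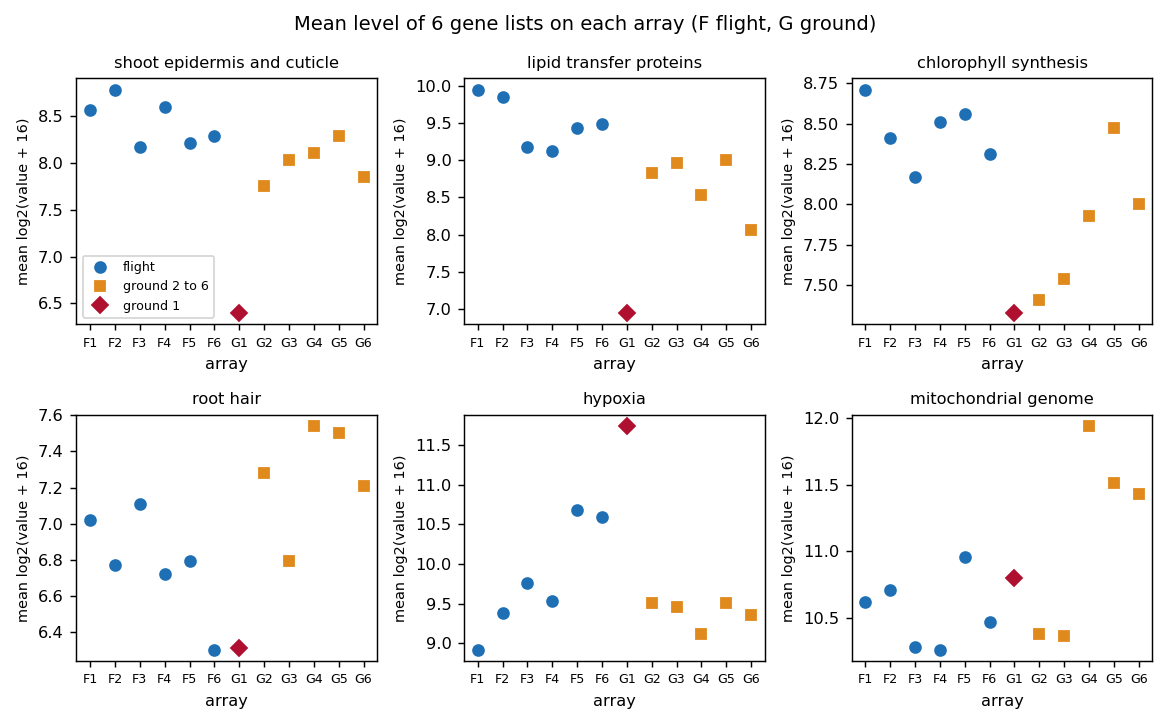
Mean log2 level of 6 gene lists on each seedling array, flight 1 to 6 (F) and ground 1 to 6 (G), one panel a list. The lipid transfer protein list lies at 9.12 to 9.95 in flight and 8.06 to 9.0 on ground arrays 2 to 6, flight arrays 5 and 6 stand at 10.68 and 10.60 in the hypoxia list, and ground arrays 4 to 6 stand at 11.43 to 11.94 in the mitochondrial genome list.

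Of 27 root hair genes, 8 were higher in flight without ground 1, with a median of -0.61, and 10 with it, with a median of -0.36. The list mean was 6.30 to 7.11 in flight and 6.79 to 7.54 on ground arrays 2 to 6, so the groups overlap, and ground 1 was at 6.31. Most of these genes were dim, and the 2 of 27 with a mean of at least 9, LRX2 and ROP2, were both higher without ground 1, with a median of 0.45, so the negative median comes from the dim probe sets. RHS13 and XTH14, both of root hair walls, had differences of -0.94 and -0.90 without ground 1 and of -0.26 and -0.35 with it. LRX2, the partner of LRX1, had a difference of 0.67 ± 0.35 SE without ground 1 (adjusted p = 0.385) and 0.96 with it. The genes of root patterning, endodermis and uptake had 4 of 19 higher without ground 1 and 9 of 19 with it, with medians of -0.31 and -0.09. CPC, a small MYB protein that moves between epidermal cells and promotes hair fate, went the other way, at 9.29 to 10.19 in flight and 8.84 to 9.23 on ground arrays 2 to 6. Those arrays did not overlap, and the difference of 0.70 ± 0.23 SE did not pass (adjusted p = 0.139; 0.84 with ground 1, which was at 8.16). SHR and CASP1, of the root endodermis, differed by 0.07 and -0.39 without ground 1 and by 0.62 and 0.50 with it. SULTR1;2, a root sulfate importer, differed by -0.88 ± 0.23 SE without ground 1 and by -0.77 with it. Without ground 1 its adjusted p was 0.0589 over the brighter and 0.315 over all probe sets (limma).

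The hypoxia list divided the flight arrays themselves. Its mean level was 8.92, 9.38, 9.76, 9.53, 10.68 and 10.60 on flight arrays 1 to 6 and 9.11 to 9.51 on ground arrays 2 to 6, with 11.74 on ground 1. ADH1, alcohol dehydrogenase of fermentation, was at 11.37, 11.84, 12.61, 11.87, 14.25 and 13.78 in flight and at 12.36, 12.18, 10.98, 12.10 and 12.60 on those ground arrays, with 15.88 on ground 1. AT4G33070, a pyruvate decarboxylase, and SUS4, a sucrose synthase that feeds fermentation, were at 12.14 and 11.05 on flight 5 and at 11.50 and 10.56 on flight 6, against at most 9.88 and 8.37 on ground arrays 2 to 6. Flight arrays 1 to 4 did not share these high values. Of 21 genes, 16 were higher without ground 1 (median 0.45) and 10 with it (median -0.06), and median centring of the 12 arrays turned the latter to 0.03. The member with the smallest p among the brighter ones, AT3G10040, differed by 0.95 ± 0.39 SE (adjusted p = 0.258; 0.89 with ground 1).

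Of 11 mitochondrial genome genes, 0 were higher in flight, with medians of -0.55 without ground 1 and -0.54 with it. The list mean was 10.26 to 10.96 in flight. Ground 2 and 3, at 10.38 and 10.36, lay within that range, while ground 4 to 6 were at 11.94, 11.51 and 11.43 and ground 1 at 10.80. The difference therefore rests on 3 ground arrays. nad4L, a subunit of complex I, had a difference of -0.96 ± 0.43 SE (adjusted p = 0.314; -0.83 with ground 1), with 14.66, 14.10 and 13.72 on ground 4 to 6 and 12.09 to 13.44 on flight arrays and ground 2 and 3 together. The 66 chloroplast genome genes had 62 higher with 12 arrays and 30 without ground 1, with medians of 0.31 and -0.02.

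**Figure D5:**
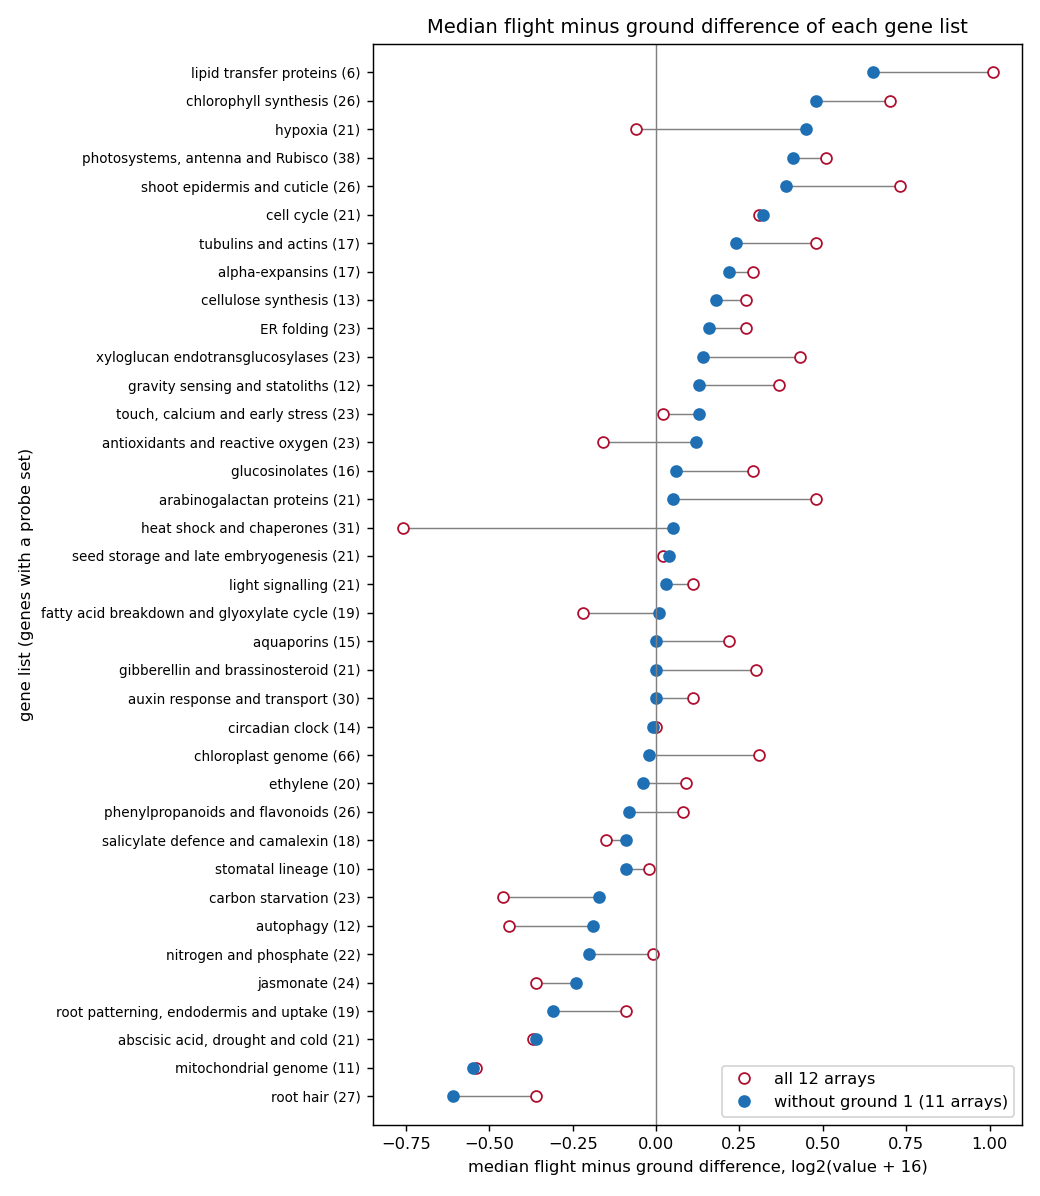
Median log2 difference, flight minus ground, of each gene list on the horizontal axis, with 12 arrays as open circles and without ground 1 as filled circles. The heat shock list moves from -0.76 to 0.05 and the chloroplast genome list from 0.31 to -0.02, while the mitochondrial genome list stays at -0.54 and -0.55.

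The change of sign in the heat shock list, from 2 of 31 genes higher with 12 arrays to 19 of 31 without ground 1, came with that array. On the other arrays the list lay at 8.29 to 8.70 in flight and 8.13 to 8.49 on the ground. The carbon starvation list went from -0.46 to -0.17 and the autophagy list from -0.44 to -0.19. Without ground 1, centring each array on its median raised every difference by 0.14. Only list medians from just below 0 down to that size would change sign under it, and the positive ones would not.

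Growth and cell wall lists were mixed. Tubulins and actins had 14 of 17 genes higher in both fits, with medians of 0.48 and 0.24. Cell cycle genes had 17 of 21 higher with 12 arrays and 14 without ground 1, with medians of 0.31 and 0.32. KRP2, an inhibitor of cyclin-dependent kinases, was at 7.48, 9.88, 7.63, 9.45 and 8.37 on ground arrays 2 to 6 against 8.71 to 10.45 in flight, and its difference of 1.1 ± 0.47 SE did not pass (adjusted p = 0.293; 1.15 with ground 1). Alpha-expansins, which loosen walls during elongation, had a median of 0.22 without ground 1 and 0.29 with it. EXPA1 was at 9.21 to 10.02 in flight and 8.64 to 9.07 on all 6 ground arrays, with no overlap (0.72 ± 0.23 SE; adjusted p = 0.122; 0.70 with ground 1). KRP2 and EXPA1 reached the mean of at least 9 through the flight arrays, so their place among the brighter probe sets depends on those arrays. The xyloglucan endotransglucosylases and the cellulose synthesis genes had medians of 0.14 and 0.18 without ground 1 and of 0.43 and 0.27 with it. The medians of arabinogalactan proteins, aquaporins and the gibberellin and brassinosteroid list went from 0.48, 0.22 and 0.30 with 12 arrays to 0.05, 0.00 and 0.00 without ground 1.

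The lists of gravity sensing, auxin and touch, which a change in gravity might bring to mind, had medians of 0.00 to 0.13 without ground 1. The 12 genes of gravity sensing and statoliths had 8 higher in both fits, with a median of 0.13 without ground 1 and 0.37 with it. SGR5, a zinc finger protein of shoot gravitropism, differed by 0.69 ± 0.29 SE (adjusted p = 0.258; 0.87 with ground 1). PIN7, an auxin exporter, was at 4.62 on ground 1 and differed by 0.18 ± 0.33 SE without it and 1.00 with it. Auxin response and transport genes had 15 of 30 higher without ground 1, with a median of 0.00, and 19 with it, with a median of 0.11. Touch, calcium and early stress genes had 15 of 23 higher without ground 1 and 12 with it, with medians of 0.13 and 0.02. TCH3, a calmodulin-like protein induced by touch, differed by 0.30 ± 0.19 SE (adjusted p = 0.441; 0.29 with ground 1). The abscisic acid, drought and cold list had 5 of 21 higher and a median of -0.36 without ground 1, although its member RD22 rose, and 6 higher and a median of -0.37 with it. Its mean level was 7.87 to 8.68 in flight and 8.51 to 8.78 on ground arrays 2 to 6, with 8.8 on ground 1. Jasmonate genes had 7 of 24 higher in both fits, with medians of -0.24 without ground 1 and -0.36 with it. RBOHD, an NADPH oxidase that makes apoplastic superoxide, was at 9.19 to 10.62 in flight and 8.55 to 9.48 on ground arrays 2 to 6 (1.03 ± 0.31 SE; adjusted p = 0.12; 0.70 with ground 1). MAM1 and IMS2, of methionine chain elongation, differed by 0.91 ± 0.28 and 0.64 ± 0.26 SE (adjusted p of 0.132 and 0.234), and by 1.25 and 1.1 with ground 1. The glucosinolate list that holds MAM1 had medians of 0.06 without ground 1 and 0.29 with it.

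Further named genes had differences that did not pass. Of the higher ones, MLP423, another major latex protein-like gene, differed by 1.52, scpl48, a serine carboxypeptidase-like protein, by 1.08, FP3, a farnesylated metal-binding protein, by 0.97, and SVB, annotated in trichome development, by 0.96 without ground 1 (limma over the brighter probe sets, adjusted p of 0.092, 0.0888, 0.0516 and 0.09). With ground 1 they differed by 2.06, 1.16, 1.22 and 1.01. FP3 passed under the trended prior. MLP423 and scpl48 reached the mean of at least 9 through the flight arrays, with means of 8.79 and 8.61 on ground arrays 2 to 6. Of the lower ones, GSTU24, a glutathione transferase, UGT73B5, a glucosyltransferase, and GLYI4, of the glyoxalase family, differed by -0.91, -0.87 and -0.67 without ground 1, and SCL14, a GRAS protein that activates detoxification genes, by -0.64. With it they differed by -1.32, -0.97, -0.94 and -0.82. GAT1_2.1 was at 9.80 to 11.08 in flight and 11.14 to 11.33 on ground arrays 2 to 6, with 14.87 on ground 1, so all flight arrays lay below all ground arrays (-0.83 ± 0.28 SE without ground 1, adjusted p = 0.158; -1.44 with it). WRKY25, a stress-induced transcription factor, and PIRL5 differed by -0.78 and -0.58 without ground 1 and by -1.29 and -0.65 with it. GSTU24, UGT73B5, SCL14 and WRKY25 reached the mean of at least 9 through the ground arrays, with flight means of 8.51 to 8.86.

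Messages of the maturing seed separated flight 1 from the rest. The mean level of the 21 seed storage and late embryogenesis genes was 8.11 on flight 1 and 5.61 to 7.03 on the other 11 arrays. CRA1, a 12S storage globulin, was at 11.62 on flight 1 and at 5.41 to 8.49 on the others. Flight 1 was also an array without which 0 probe sets passed over all probe sets and 2 among the brighter ones.

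The flight effect in seedlings was compared with that in cultured cells by the interaction of group and material over 24 arrays. Of 22746 probe sets 0 passed (0.0%), with 1508 at an unadjusted p under 0.05 and a smallest adjusted p of 0.0644 by limma, and 0 passed without ground 1. Among probe sets with a mean of at least 9, and again under the trended prior, 1 passed with 24 arrays, and 4 passed with a pseudocount of 64. In the authors' deposited table, which holds a fold and a q-value for seedlings, 2 probe sets had a q under 0.05. These were that of AT4G34950, with a log2 fold of 3.21, and that of AT5G28400, which pairs with several genes, with -1.20. The normalization behind the authors' deposited table is not given in the sources used here. Across probe sets its folds correlated at r = 0.9989 with differences of the mean log2 intensity over all 12 arrays taken without a pseudocount, ground 1 included. They therefore differ from the differences on the log2(value + 16) scale, which for AT4G34950 was 2.29 with 12 arrays.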

How the data were processed

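RNA of 12 seedling arrays (Affymetrix ATH1, 1 biotin label) was extracted, amplified and labelled with the RNeasy, Ovation Pico WTA and Encore Biotin kits, per the labels' protocols. The deposited values are linear intensity values that the authors made with MAS5 and Affymetrix Expression Console (no version given; per the submitters' processing notes). On every array their mean after trimming 2% at each end is 500. Per the file headers, the authors also deposited q-value and p-value columns beside a log2 fold for each probe set, used here for comparison alone.

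Intensities were taken as log2(value + 16) with no further normalization, and 22746 of 22810 probe sets were tested after leaving out 64 Affymetrix controls. Flight was compared with ground with and without ground 1 by two-sided limma 3.58.1 tests (lmFit, eBayes; R 4.3.3), and p-values were adjusted by Benjamini-Hochberg over the probe sets of the fit at a threshold of 0.05. The difference from cultured cells was fitted over all 24 arrays. Python 3.11.15 with pandas 2.3.3, numpy 2.4.6 and matplotlib 3.10.9 made tables and figures, and the fits were tested on simulated data. Background came from the 27 bacterial control probe sets of an array (their 95th percentile), and where all arrays of a group lay under it only a bound is given. The bound sets the brighter group's mean against that of the dimmer group after raising each dim array to its background.

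Platform annotation pairs 21511 probe sets with 1 gene, of which 9068 have a symbol from RefSeq TAIR10.1, 77 are organelle genes by the deposited names, 924 pair with several genes or disagree and 234 with none. Each gene is represented by its brightest probe set. The 37 gene lists hold 785 genes with a probe set and were described by counts and medians, with no test over a list. A list of cytosolic ribosomal proteins was not used. Named genes are all calls over all probe sets, up to 8 in each direction with the smallest p among brighter probe sets with a symbol, up to 2 brighter members of each list by p, and the genes in which ground 1 stood farthest out. Calls of the brighter set and of the trended prior were added after their values were seen. Members, lists and rules were chosen with earlier results of these data known. Alternatives covered pseudocount, normalization, filter, variance prior, array weights, canister, hardware position as a block and each array left out. Promoter and protein sequences were not analysed here.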

Additional observations from a re-analysis of the deposited data

Results flagged for a closer look

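Of 306 groups of 6 values examined (named genes, list means and array measures), 87 held an array whose gap to the nearest other, as a share of the group's range, was beyond Dixon's critical value of 0.625. Ground 1 was that array in 75 of the 87. The ground groups include 12 genes named because ground 1 stood farthest out in them, and heat shock genes that were known to be high there, so their count is a description. Of 153 flight groups, 12 had such an array, and chance gives about 5% of groups. All values are log2 levels unless stated.

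Ground 1 had a median correlation of 0.55 with the other arrays. It was high in heat shock and general stress genes, with HSP17.4 at 17.81, AT1G53540 at 17.51, Hsp70b at 16.54, MBF1C at 16.74, HSP101 at 15.73, CLPB4 at 12.83, BCB, a blue copper protein, at 15.35, GRX480, a glutaredoxin, at 15.64 and WRKY25 at 12.73. It was also high in genes of catabolism and detoxification, with GDH2 at 17.05, SEN1 at 15.73, ASPGB1 at 14.99, GAT1_2.1 at 14.87, ATG8F at 14.81, GLYI7 at 14.64, SDP1, a lipase of seed oil, at 13.42, GLYI4 at 13.37 and GSTU24 at 11.92. Further high values were XTH24 at 15.88, EIN3 at 14.29, ABCB4 at 11.59, RBOHD at 11.25, ALB1 at 9.81, AT1G73040 at 8.67 and NUDT12 at 6.72.

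Ground 1 was low in growth and wall genes, with COB at 8.22, CESA6 at 7.58, EXP3 at 6.56, FLA13 at 5.65, AT5G14920, annotated as GASA14, at 7.10, GASA4 at 12.71, GAI at 7.30, AT1G09310 at 7.73, AT4G35720 at 6.44 and AT1G77330 at 4.64. It was low in surface genes, with LTP2 at 10.96, LTPG1 at 7.83, PDF1 at 6.70 and LTP5 at 4.76, and in water channels, with PIP1C at 9.68 and DELTA-TIP at 7.53. Root and auxin genes were low as well, with CPC at 8.16, ABCB19 at 7.67, SHR at 6.18 and PIN7 at 4.62. The remaining low values were MLP43 at 9.16, EMB3105 at 7.54, AT5G19890 at 6.66, CNX1 at 9.65, CRT1b at 7.95, GRP7 at 10.57, GLN1.3 at 9.64, GS2 at 5.40, 4CL2 at 4.84, PCNA2 at 4.92 and psbM at 7.74.

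The same array stood out in list means. It was high for heat shock at 13.91, carbon starvation at 13.02, hypoxia at 11.74, antioxidants at 11.22, fatty acid breakdown at 10.61, touch at 8.98 and jasmonate at 8.13. It was low for aquaporins at 8.61, ethylene at 8.65, tubulins and actins at 8.55, gibberellin and brassinosteroid at 8.38, cellulose synthesis at 8.01, phenylpropanoids at 7.37, arabinogalactan proteins at 7.29, glucosinolates at 7.25, cell cycle at 6.84, root patterning at 6.59 and shoot epidermis and cuticle at 6.4. What set this array apart was not tested.

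Among flight arrays, flight 3 was low for DELTA-TIP at 12.11, AGP9 at 10.61, PSBR at 10.15 and GS2 at 9.91 and high for AOS, of jasmonate synthesis, at 10.98. Flight 2 was low for RBOHD at 9.19, the ER folding list at 8.85 and the gravity list at 8.80, and high for EDS1, a regulator of immunity, at 11.48. Flight 6 was low for GRP7 at 13.56, flight 5 high for the dim AT3G59120 at 5.49, and flight 1 low for the glucosinolate list at 8.79.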

How the results depend on the processing

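Counts of passed probe sets moved with most choices. With 12 arrays, 4 passed, and a pseudocount of 64, only probe sets with a mean of at least 9, the trended prior, canister A alone, the hardware position as a replicate block and a fit over all 24 arrays each gave 0. Array weights gave 10, and leaving out each array gave 0 to 10. Without ground 1, 8 passed: 4 with a pseudocount of 1, 0 with 64, 13 with median centring (9 of them higher), 29 with the trended prior, 0 with canister A alone, 0 with the replicate block and 0 to 21 when a further array was left out. The 11 brighter calls, whose alternatives were chosen after seeing the data, became 31 with median centring (28 higher), 2 with canister A alone, 4 with the replicate block and 2 to 36 when a further array was left out. Without ground 1, leaving out ground 3 gave the 21, and in the brighter set leaving out ground 5 gave the 36 and flight 1 the 2. The difference between materials went from 0 to 4 with a pseudocount of 64, and to 1 with the brighter set and with the trended prior. Why these counts moved was not tested, beyond the fewer arrays or genes of some settings. The share above background kept its direction and its call throughout, at 9.91 to 14.4 points with arrays left out and 14.5 with background at the 90th percentile.

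With single arrays left out, HSP17.4 ranged from -2.01 to 0.02, AT1G53540 from -1.45 to 0.54, Hsp70b from -1.33 to 0.59, HSP101 from -1.27 to 0.03, BCB from -1.10 to 0.40, GRX480 from -0.98 to 0.20, AT5G14920 from 1.39 to -0.24, AT1G77330 from 1.06 to -0.46 and AT4G35720 from 1.35 to -0.04. The second value of each is that without ground 1, the one array whose removal turned the sign. Of the other named values, 1714 kept direction and call, 33 lost the call and 4 gained it. Only AT3G59120, AT4G34950, AT5G39090 and AT4G21650 had a call to lose in the fit over all seedling arrays. The 33 losses were all theirs, and each of these genes kept its call under some other settings. The remaining named genes had no call to lose, so for them the 1714 records a kept direction and no call. The hardware positions are shared by both groups, but same-position arrays did not deviate together (r of -0.0204 to 0.0572), so the positions were not taken as pairs.

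The number of arrays limits every value, and no depth of reads applies. Probe sets below background on all arrays of a group have only bounds, and spaceflight and the sites of incubation cannot be told apart.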
